A study of Mus musculus with 16 samples.

Results

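The Myc, Max and Mxd network comprises 9 genes, Myc, Mycn, Mycl, Max, Mxd1, Mxd3, Mxd4, Mxi1 and Mnt, which were matched by symbol in the platform annotation of the arrays. All 9 were measured, with 22 probe sets between them, among 18193 genes. A probe set is a group of short oligonucleotides that reports 1 transcript or several. Each gene is represented by its brightest probe set, the one with the highest mean over the 16 arrays, and the 13 others are described beside it. The study followed early brain development with total RNA from whole heads of mouse embryos. There were 6 samples of E9.5, 4 of E11.5 and 6 of E13.5, which the submitters describe as biological replicates, and no treatment or allele was labelled. The labels name no strain or sex and do not say whether embryos were pooled. Samples of E9.5 and E11.5 were labelled with a one-cycle kit of one maker and those of E13.5 with an amplification kit of another, so stage and labelling kit cannot be told apart in any difference that involves E13.5. Samples 13 and 15 of E9.5 differed from the rest along the third principal component, which held 3.17% of the variance, scoring 26 and 22.5 where the other 14 arrays lay between -16.3 and 6.72. Whole heads hold many cell types, and a smaller share of cells of a type and less RNA per cell cannot be told apart in such samples.

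Myc proteins are transcription factors that activate genes of growth, ribosome assembly and metabolism. They bind DNA only as pairs with Max, at the E-box CACGTG and related sequences. Mxd proteins and Mnt compete for Max and for the same sites, and recruit the SIN3 corepressor complex with its histone deacetylases. In the embryonic nervous system, Mycn is known for expanding the progenitor pool, and Mxd genes, apart from Mxd3, are known from cells that leave the cell cycle.

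The network's own promoters were searched for the site it binds, the 6 letters CACGTG, which read the same on both strands. RefSeq promoter windows of 300 bases (250 before the transcription start and 50 after it, assembly GRCm38.p6) were matched for 8 of the 9 members, all but Myc. The motif was present in 3 of the 8, those of Max, Mxd4 and Mnt. It was present in 10.2% of the 14452 measured genes that had a window, and in 7.15% of all 32851 windows. The 3 stretches that hold it are shown 5′ to 3′ on the gene's strand, with the motif in capitals. They lie at chr12:76962246-76962305 (minus strand, Max), chr5:34187897-34187956 (minus strand, Mxd4) and chr11:74830774-74830833 (plus strand, Mnt).
Max: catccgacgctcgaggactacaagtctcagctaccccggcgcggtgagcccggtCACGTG
Mxd4: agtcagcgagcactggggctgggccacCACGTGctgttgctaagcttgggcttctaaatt
Mnt: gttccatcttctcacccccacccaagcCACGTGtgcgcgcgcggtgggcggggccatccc
The motif began 3 bases before the annotated start in Max, 219 before it in Mxd4 and 123 before it in Mnt. These matches are letters in a window, and binding was not measured here.

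Over the 3 stages, 8 of the 9 members differed by limma's moderated F test (adjusted p from 8.43e-16 for Mycn to 6.07e-06 for Mxd3), and Mycl was not called on its brightest probe set (adjusted p = 0.727). Over all genes, 75.8% differed between stages. From E9.5 to E11.5, 5 members rose and 2 fell at an adjusted p under 0.05, against a background of 31.0% of genes called higher and 26.9% called lower. The 5 that rose were the 5 antagonists of Myc, Mxd1, Mxd3, Mxd4, Mxi1 and Mnt. The 2 that fell were Myc and Mycn. In either direction, 7 members were called, against 57.8% of genes. For 7 members all arrays of one stage lay above all of the other, which held for 37.7% of all genes. From E11.5 to E13.5, 3 members rose (Myc, Max and Mxi1) and 1 fell (Mycn), against 27.9% and 27.0% of all genes. That made 4 called in either direction, against 54.9%, and the same 4 were free of overlap, against 43.0% of genes. From E9.5 to E13.5, 6 rose (Max and the 5 antagonists) and 2 fell (Myc and Mycn), against 32.7% and 29.1%. That made 8 called in either direction, against 61.8%, and the same 8 were free of overlap, against 44.8% of genes. Comparisons that share a stage share its arrays. Without the E9.5 samples 13 and 15, the same 7 members were called from E9.5 to E11.5, with log2 differences of -2.13 for Myc, -0.34 for Mycn and 0.62 (Mnt) to 1.23 (Mxd4) for the antagonists.

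**Figure D1:**
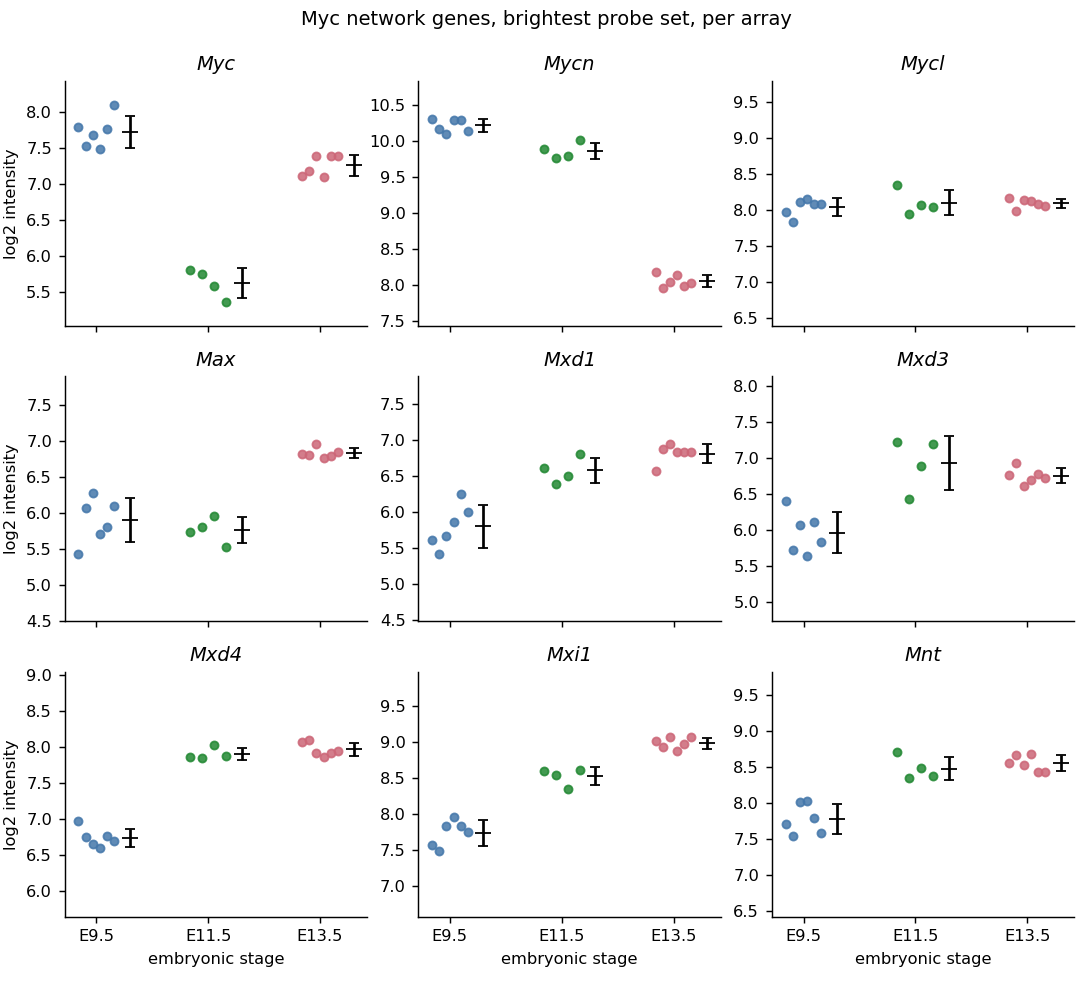
Log2 intensity of the brightest probe set of each network gene (vertical axis, with the same span in every panel) by embryonic stage; each point is 1 array, and the bar beside it is the stage mean ± SD (n = 6, 4 and 6). Myc is lowest at E11.5, Mycn falls furthest at E13.5 (mean 8.06 against 10.22 at E9.5), and the Mxd genes, Mxi1 and Mnt are lowest at E9.5.

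Myc, the most widely studied of the 3 activators, was lowest at E11.5. Its log2 intensity ranged from 7.48 to 8.10 at E9.5, with a median of 7.72. The 4 arrays of E11.5 read 5.81, 5.75, 5.58 and 5.36. At E13.5 it lay between 7.10 and 7.39, with a median of 7.28. All E11.5 arrays were thus lower than every array of both other stages, and the E13.5 arrays were lower than every E9.5 array. The fall from E9.5 to E11.5 was 4.29-fold (log2 difference -2.10 ± 0.12 SE, adjusted p = 1.1e-11), and both stages were labelled with the same kit. The rise from E11.5 to E13.5 was 3.10-fold (log2 difference 1.63 ± 0.12, adjusted p = 3.44e-10), across the change of kit. Between E9.5 and E13.5 Myc was lower by 0.47 on the log2 scale (difference -0.47 ± 0.10, adjusted p = 5.74e-04). Among all genes, 11.0% were called lower at E11.5 than at both flanking stages. Myc had 1 probe set on the array, so no other probe set bears on these values.

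Mycn, the family member known from neural progenitors, fell in 2 unequal steps. At E9.5 its log2 intensity lay between 10.11 and 10.31, with a median of 10.24. At E11.5 the 4 arrays read 9.89, 9.76, 9.80 and 10.02. At E13.5 it lay between 7.97 and 8.18, with a median of 8.04. No array of one stage overlapped with those of another. The first step was 1.28-fold (log2 difference -0.35 ± 0.08, adjusted p = 6.08e-04) and the second 3.50-fold (-1.81 ± 0.08, adjusted p = 1.89e-13), across the change of kit. The whole fall from E9.5 to E13.5 was 4.47-fold (-2.16 ± 0.07, adjusted p = 4.04e-16). Of all genes, 5.69% were called lower at both steps. The probe set of Mycn with the next highest mean gave smaller differences, -0.23 ± 0.18 (adjusted p = 0.302 over all probe sets) at the first step and -0.87 ± 0.18 (adjusted p = 3.91e-04) at the second. The dimmest, with stage means of 5.77, 5.48 and 5.82, rose by 0.34 ± 0.13 (adjusted p = 0.0377) at the second step with overlapping arrays.

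Mycl, the third activator, gave unlike readings on its probe sets, level on the brightest and falling on the others. The brightest was level, at 8.04 ± 0.12 (SD, n = 6), 8.11 ± 0.17 (n = 4) and 8.10 ± 0.06 (n = 6) in stage order, and all 3 stages overlapped. The largest of its 3 differences was 0.06 ± 0.09 (adjusted p = 0.553). The 2 dimmer probe sets both fell from E9.5 to E13.5. One of them lay between 6.02 and 6.69 at E9.5, at 6.11, 5.88, 5.58 and 5.83 at E11.5, and between 4.39 and 4.75 at E13.5. That fall was 3.49-fold (log2 difference -1.80 ± 0.12, adjusted p = 2.46e-11), and every E13.5 array was lower than every array of both earlier stages. The other fell by 1.40 on the log2 scale over the same interval (-1.40 ± 0.13, adjusted p = 1.37e-08), of which -0.95 ± 0.15 (adjusted p = 2.13e-05) came before E11.5. Which transcripts each probe set detects was not tested, so no single direction is given for Mycl.

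The 3 activators did not change alike on their brightest probe sets. The difference between Myc and Mycn on the same array shifted by -1.75 log2 units from E9.5 to E11.5 and by 3.44 from E11.5 to E13.5 (two-sided exact permutation p = 0.00476 for each, the smallest that 4 against 6 arrays can give). From E9.5 to E13.5 it shifted by 1.69 (exact permutation p = 0.00216, the smallest for 6 against 6). Myc thus fell more than Mycn at the first step and Mycn more than Myc over the whole interval. Adjusted over the 9 tests of 3 gene pairs in 3 comparisons, each p was 0.00476. The shifts that involve Mycl depended on its probe set. Mycn minus Mycl moved by -2.21 from E9.5 to E13.5 with the brightest probe sets, by -0.021 with the mean of all probe sets and by 0.70 with the second-brightest.

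Max, the partner that Myc and Mxd proteins share for binding DNA, changed only in comparisons with E13.5. Its log2 intensity ranged from 5.43 to 6.27 at E9.5 (median 5.94), and the E11.5 arrays read 5.73, 5.81, 5.95 and 5.52, inside that range. At E13.5 it lay between 6.75 and 6.95 (median 6.81), higher than every earlier array. The E11.5 to E13.5 rise was 2.10-fold (log2 difference 1.07 ± 0.13, adjusted p = 4.57e-07), while the difference from E9.5 to E11.5 was -0.14 ± 0.13 (adjusted p = 0.363). Both comparisons in which Max rose span the change of labelling kit. Max was read by 1 probe set.

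The 5 antagonists were all higher at E11.5 than at E9.5, in the comparison made with 1 kit, and none was called lower at E13.5 than at E11.5. Both held for 17.5% of all genes. Mxd4, an Mxd repressor found in many tissues, rose 2.24-fold (log2 difference 1.16 ± 0.08, adjusted p = 2.89e-10). Its arrays lay between 6.60 and 6.98 at E9.5 (median 6.73), and read 7.87, 7.85, 8.04 and 7.88 at E11.5. At E13.5 they lay between 7.86 and 8.10 (median 7.94), a difference of 0.06 ± 0.08 from E11.5 that was not called (adjusted p = 0.54). The arrays of the later stages overlapped, and all were higher than every E9.5 array. The second-brightest probe set of Mxd4 rose in the same way at the first step (1.02 ± 0.12, adjusted p = 4.31e-07). The 2 dimmest, with stage means between 4.36 and 5.02, were not called there (-0.19 ± 0.13 and -0.08 ± 0.10, adjusted p = 0.233 and 0.536).

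Mxd3, known from the cell cycle of proliferating progenitors, rose at the first step on all 3 of its probe sets. The brightest rose 1.95-fold from E9.5 to E11.5 (log2 difference 0.97 ± 0.15, adjusted p = 1.2e-05), and the others by 1.15 ± 0.10 (adjusted p = 1.09e-08) and 0.96 ± 0.09 (adjusted p = 2.95e-08). On the brightest, E9.5 arrays lay between 5.64 and 6.41 (median 5.95), E11.5 arrays read 7.22, 6.43, 6.88 and 7.20, and E13.5 arrays lay between 6.61 and 6.93 (median 6.75). The E11.5 sample 36, at 6.43, stood just above the highest E9.5 array. From E11.5 to E13.5 the brightest differed by -0.18 ± 0.15 (adjusted p = 0.327), and without sample 36 by -0.35 (adjusted p = 0.0398). Another probe set was called lower at that step (-0.33 ± 0.10, adjusted p = 0.01), and the last was not (-0.18 ± 0.09, adjusted p = 0.115). Between E9.5 and E13.5 all 3 were higher, by 0.78 to 0.82 log2 units.

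Mxi1, an Mxd repressor also called Mxd2, rose at both steps on its brightest probe set, as did 7.73% of all genes. Its arrays lay between 7.48 and 7.97 at E9.5 (median 7.79), read 8.60, 8.54, 8.35 and 8.61 at E11.5, and lay between 8.88 and 9.07 at E13.5 (median 8.99). No arrays of different stages overlapped. The steps were 0.78 ± 0.09 (1.72-fold, adjusted p = 4.1e-07) and 0.46 ± 0.09 (1.38-fold, adjusted p = 2.65e-04), and the whole rise was 2.37-fold (1.24 ± 0.08, adjusted p = 3.57e-11). Samples 13 and 15 of E9.5 were its lowest at 7.58 and 7.48, and without both the first step was 0.68. The other Mxi1 probe set also rose at the first step (0.53 ± 0.14, adjusted p = 0.00272) but was lower at the second (-0.33 ± 0.14, adjusted p = 0.0469), with overlapping arrays. From E9.5 to E13.5 that probe set was at 0.20 ± 0.12 (adjusted p = 0.181), with overlapping arrays. The second rise of Mxi1 and its rise over the whole interval therefore rest on 1 probe set.

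Mxd1, the first described Mxd repressor, and Mnt, a broadly expressed Max partner that also represses, showed rises of 1.71-fold and 1.62-fold from E9.5 to E11.5. Mxd1 arrays lay between 5.43 and 6.25 at E9.5 (median 5.77), read 6.61, 6.39, 6.51 and 6.81 at E11.5, and lay between 6.57 and 6.94 at E13.5 (median 6.83). Its first step was 0.78 ± 0.13 (adjusted p = 2.83e-05) and its second 0.23 ± 0.13 (adjusted p = 0.133). The E11.5 and E13.5 arrays overlapped, and both were higher than all E9.5 arrays. Mnt arrays lay between 7.54 and 8.03 at E9.5 (median 7.75), read 8.70, 8.35, 8.48 and 8.38 at E11.5, and lay between 8.43 and 8.68 at E13.5 (median 8.54). Its first step was 0.70 ± 0.11 (adjusted p = 1.02e-05) and its second 0.07 ± 0.11 (adjusted p = 0.587), so the later stages overlapped above E9.5 as they did for Mxd1. The other probe sets of both genes were dim. That of Mnt, with stage means of 4.66, 4.42 and 4.46, was not called at the first step (-0.24 ± 0.11, adjusted p = 0.09). Of the 2 other Mxd1 probe sets, one rose at the first step (0.57 ± 0.17, adjusted p = 0.00755) and was lower again at the second (-0.51 ± 0.17, adjusted p = 0.0155), with 6.04 in the E11.5 sample 51 against 4.81 to 5.0 in the other 3. The last was not called in any comparison.

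**Figure D2:**
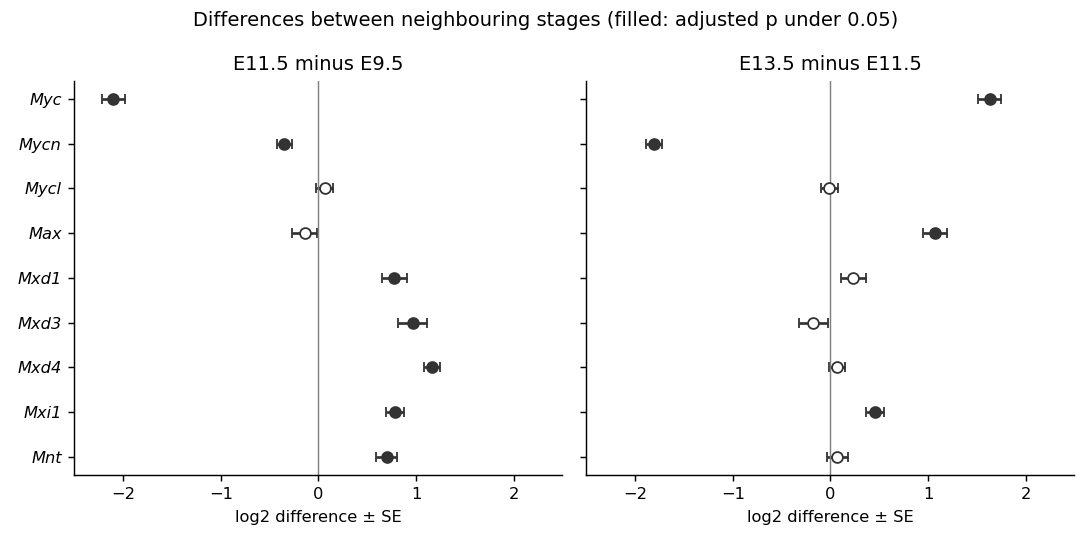
Log2 difference ± SE of the brightest probe set of each network gene between neighbouring stages (horizontal axis), E11.5 minus E9.5 on the left and E13.5 minus E11.5 on the right; filled points have an adjusted p under 0.05. On the left the 5 antagonists lie between 0.70 and 1.16 and Myc at -2.10, and on the right Myc lies at 1.63, Max at 1.07 and Mycn at -1.81.

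Over the 13 probe sets that were not the brightest of their gene, 5 rose and 2 fell from E9.5 to E11.5, where 52.4% of 45037 probe sets were called in either direction. From E11.5 to E13.5, 2 rose and 6 fell, against 51.5% called, and from E9.5 to E13.5, 4 rose and 3 fell, against 57.6%. The 5 that rose first belonged to Mxd1, Mxd3 (2 probe sets), Mxd4 and Mxi1, and the 2 that fell to Mycl. With the second-brightest probe sets, the members called lower from E11.5 to E13.5 numbered 5 instead of 1, and those called higher from E9.5 to E13.5 numbered 3 instead of 6. With all probe sets of each gene averaged, 3 members were called lower from E11.5 to E13.5.

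**Figure D3:**
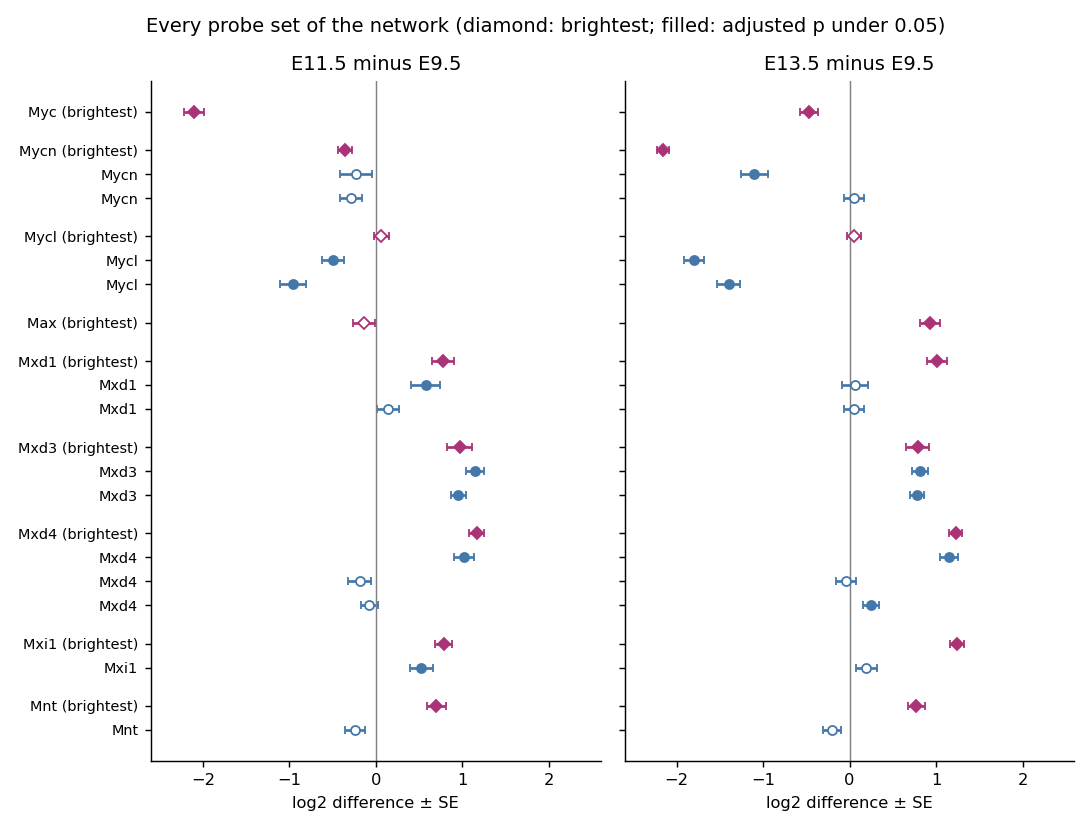
Log2 difference ± SE of each of the 22 probe sets of the network (horizontal axis), E11.5 minus E9.5 on the left and E13.5 minus E9.5 on the right, listed by gene from brightest to dimmest; diamonds are the brightest, and filled symbols have an adjusted p under 0.05. The 3 probe sets of Mxd3 lie together, whereas on the right those of Mycl span -1.80 to 0.05.

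Within a stage, correlations between arrays across genes lay between 0.988 and 0.998. The brightest probe sets of the members lay between the 51.6th (Max) and the 90.1st (Mycn) percentile of genes by mean intensity. Within E13.5, the arrays with the title prefix B62 and those with B63 (3 each) overlapped for all 9 members. Over all genes, however, limma's estimate of the correlation between arrays that share a prefix was 0.601. The main tests treat these arrays as independent, so their p-values for E13.5 may be too small. Probe sets for spike-in transcripts with poly-A tails were at 7.55 ± 0.22 (SD, n = 6) at E9.5, 5.38 ± 0.13 (n = 4) at E11.5 and 5.12 ± 0.10 (n = 6) at E13.5, so they were lower at E11.5 although the kit was the same. Whether these transcripts were added to every sample was not tested. Controls added at hybridisation were highest at E11.5 (10.47 ± 0.54, 11.44 ± 0.24 and 10.001 ± 0.073 in stage order). The difference between 3′ and 5′ probe sets of beta-actin, a sign of RNA quality, was 0.82 ± 0.16, 0.56 ± 0.05 and 0.47 ± 0.03, and that of Gapdh was 0.18 ± 0.10, 0.14 ± 0.05 and 0.04 ± 0.03. The background for the marker counts was 31.0% of genes called higher and 26.9% called lower at the first step. At the second it was 27.9% and 27.0%. Of 11 neuronal markers, 11 rose from E9.5 to E11.5, and their summed intensity lay at 1041 to 2390, 8952 to 10198 and 15028 to 15634 in stage order. Of 9 markers of cycling cells, 7 fell and 1 rose at the first step, and their sum lay at 19836 to 20919, 13859 to 15406 and 12712 to 13456. Of 10 neural progenitor markers, 6 rose and 3 fell at the first step and 3 rose and 7 fell at the second, with sums of 7993 to 10101, 13505 to 14504 and 12748 to 13386. Of 8 mesenchymal markers, 7 rose at the first step (sums of 3750 to 4882, 9107 to 9769 and 23091 to 25398). Skeletal muscle markers summed to 114 to 133, 123 to 152 and 3999 to 5450, with Myf5 and Myl1 below the lower quartile of the arrays at both early stages and Myf5 at E13.5 too. The sums for erythroid markers were 25962 to 30613, 27471 to 38590 and 13794 to 17099. Of 7 surface ectoderm markers, 3 fell and 0 rose at the first step and 7 rose at the second, so that their sums, at 901 to 1557, 539 to 619 and 1149 to 1232, were lowest at E11.5, as was Myc. Aif1, 1 of 6 macrophage markers, lay below the lower quartile of the arrays at E9.5 and E11.5. Of the 6, 5 rose at the first step (sums of 88 to 117, 448 to 523 and 634 to 802). The antagonists rose at that step too, as did all neuronal markers and most mesenchymal and neural progenitor markers. Of 7 endothelial markers, 1 rose and 3 fell at the first step and 5 rose at the second (sums of 716 to 944, 636 to 745 and 1038 to 1157). Their median sum was also lowest at E11.5 (820, 694 and 1104 in stage order), though the ranges of E9.5 and E11.5 overlapped. No marker was at 0, since the lowest intensity on any array was 4. The part of these cell types and of handling in the changes of the network was not tested.

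Genes named in textbooks as activated by Myc fell at the first step, in which Myc and Mycn fell. Of 37 measured members of that list, 29 fell, 3 rose and 5 were not called from E9.5 to E11.5, with a median log2 difference of -0.83 against 0.02 over all genes. At that step 26.9% of all genes were called lower and 31.0% higher. The largest falls were those of the nucleolar genes Nolc1 (-2.40 ± 0.11, adjusted p = 7.75e-13), Nop56 (-2.06 ± 0.10, adjusted p = 1.29e-12) and Gnl3 (-1.74 ± 0.09, adjusted p = 8.34e-12). The other probe sets of Nolc1 and Nop56 fell as well. The 3 that rose were the ribosomal RNA transcription factor gene Ubtf (0.93 ± 0.09), the DNA repair gene Apex1 (0.77 ± 0.11) and E2f2 (0.60 ± 0.13), and the other probe sets of all 3 fell, with median log2 differences of -0.80, -0.52 and -0.47. Many of these genes belong to ribosome assembly, whose fall was known from earlier results of these data, so their direction is no independent evidence. The 9 markers of cycling cells, summed above, had a median log2 difference of -0.59 at the same step.

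From E11.5 to E13.5, in which Myc rose and Mycn fell, members of the same list moved in both directions. Of the 37, 12 rose, 18 fell and 7 were not called, with a median of -0.07 against 0.00 over all genes. The share that rose lay near the 27.9% of all genes called higher. The share that fell was larger than the 27.0% of all genes called lower. The nucleolar gene Nop58 (0.82 ± 0.11, adjusted p = 2.53e-06), the translation factor gene Eif4a1 (0.70 ± 0.07, adjusted p = 3.43e-08) and the spermidine synthase gene Srm (0.69 ± 0.08, adjusted p = 4.5e-07) rose most. Neither of the other Eif4a1 probe sets was called. Id2, an inhibitor of basic helix-loop-helix factors (-1.24 ± 0.11), Apex1 (-1.08 ± 0.11) and Cdca7 (-1.05 ± 0.11) fell most. One of the 2 other probe sets rose for Id2 and for Apex1, whereas that of Cdca7 fell too. Of the 32 list members with a promoter window, 9 (28.1%) held CACGTG, against 10.2% of measured genes with a window. The list names known targets of Myc, so this share is no independent evidence.

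Genes named as repressed by Myc form a short list. Of 8 measured, 3 rose, 0 fell and 5 were not called from E9.5 to E11.5 (median 0.23), where 31.0% of all genes were called higher, so the count lay near the background. From E11.5 to E13.5, 5 rose, 1 fell and 2 were not called (median 0.75), where 27.9% of all genes were called higher and 27.0% lower. Without the E9.5 samples 13 and 15, the number called at the first step was 5 instead of 3. The cyclin-dependent kinase inhibitor gene Cdkn1c rose at both steps (1.12 ± 0.13, adjusted p = 4.59e-07, and 1.70 ± 0.13, adjusted p = 1.3e-09). Cdkn1b, another inhibitor of that kind, rose at the first step (1.0 ± 0.09, adjusted p = 7.85e-09), while its other probe set fell (-0.50). Cdkn1a rose at the second step (1.02 ± 0.11, adjusted p = 6.65e-08) on both its probe sets. The stress-regulated gene Ndrg2 rose at that step on its brightest probe set (1.02 ± 0.14, adjusted p = 3.79e-06). Gadd45a, a DNA damage response gene, was the member that fell (-0.74 ± 0.15, adjusted p = 3.99e-04).

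The MLX and MGA branch joins the network through shared partners. Mlx pairs with Mxd1, Mxd4 and Mnt and with the glucose-sensing factors Mlxip and Mlxipl, and Mga pairs with Max. Of these 4 genes, 3 fell and 0 rose from E9.5 to E11.5, where 26.9% of all genes were called lower. Mlx fell by 1.06 on the log2 scale (-1.06 ± 0.15, adjusted p = 3.99e-06), Mga by 0.78 (-0.78 ± 0.09, adjusted p = 5.91e-07) and Mlxip by 0.44 (-0.44 ± 0.09, adjusted p = 2.12e-04). The other Mlx probe set was not called (0.21), and 2 of the 4 other Mga probe sets also fell. From E11.5 to E13.5, Mlx rose by 0.67 ± 0.15 (adjusted p = 7.26e-04) while its other probe set was not called (-0.050), Mlxipl rose by 0.58 ± 0.10 (adjusted p = 4.44e-05) from a dim level of 3.79, and Mlxip fell by 0.23 (-0.23 ± 0.09, adjusted p = 0.0284).

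Corepressors and coactivators of the network included genes that rose and genes that fell. Over all genes, 57.8% were called at the first step (31.0% higher, 26.9% lower) and 54.9% at the second (27.9% higher, 27.0% lower). The SIN3 corepressor list had 14 measured genes, of which 4 were called higher, 7 lower and 3 neither at the first step (median -0.17), and 2, 4 and 8 at the second (median -0.038). The scaffold gene Sin3b was not called at either step (0.15 and -0.08), and Sin3a was at -0.13 (not called, while its 2 other probe sets fell) and then rose by 0.25 ± 0.09 (adjusted p = 0.0244). Arid4b (0.91 ± 0.11), Hdac2 (0.53 ± 0.08) and Rbbp4 (0.51 ± 0.10) rose most at the first step and Ing2 (-1.44 ± 0.08), Brms1 (-0.90 ± 0.09) and Rbbp7 (-0.58 ± 0.08) fell most. Other probe sets of Arid4b (2 of 5) and of Hdac2 (1 of 2) fell, 1 of 3 of Rbbp4 rose, and that of Brms1 was not called. Among the 16 measured coactivators and partners of Myc, 5 were higher, 8 lower and 3 not called at the first step (median -0.24), and 6, 8 and 2 at the second (median -0.11). With the second-brightest probe set, 8 instead of 14 were called at the second step. Ruvbl1, an ATPase of chromatin complexes that bind Myc, fell by 1.81 on the log2 scale (-1.81 ± 0.09, adjusted p = 2.47e-12) and then rose by 0.55, and its partner Ruvbl2 fell at both steps (-0.56 ± 0.08 and -0.89 ± 0.08). The acetyltransferase gene Kat2a fell at the first step (-0.66 ± 0.10), as did its 2 other probe sets. The acetyltransferase genes Crebbp (0.48 ± 0.08) and Ep300 (0.45 ± 0.11) rose at the first step, and of the 3 other Crebbp probe sets 1 rose and 2 fell. Both genes fell at the second step (-0.52 ± 0.08 and -0.86 ± 0.11), where 2 of the 3 other Crebbp probe sets rose. The elongation kinase gene Cdk9 rose at the first step (0.37 ± 0.08), where its other probe set fell, and fell at the second (-0.90 ± 0.08), as did its other probe set. The chromatin remodelling gene Bptf (1.01 ± 0.08) and Ccnt1, the cyclin partner of Cdk9 (0.81 ± 0.09), rose most at the second step. Of the 3 other Bptf probe sets 1 fell there, and that of Ccnt1 was not called.

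**Figure D4:**
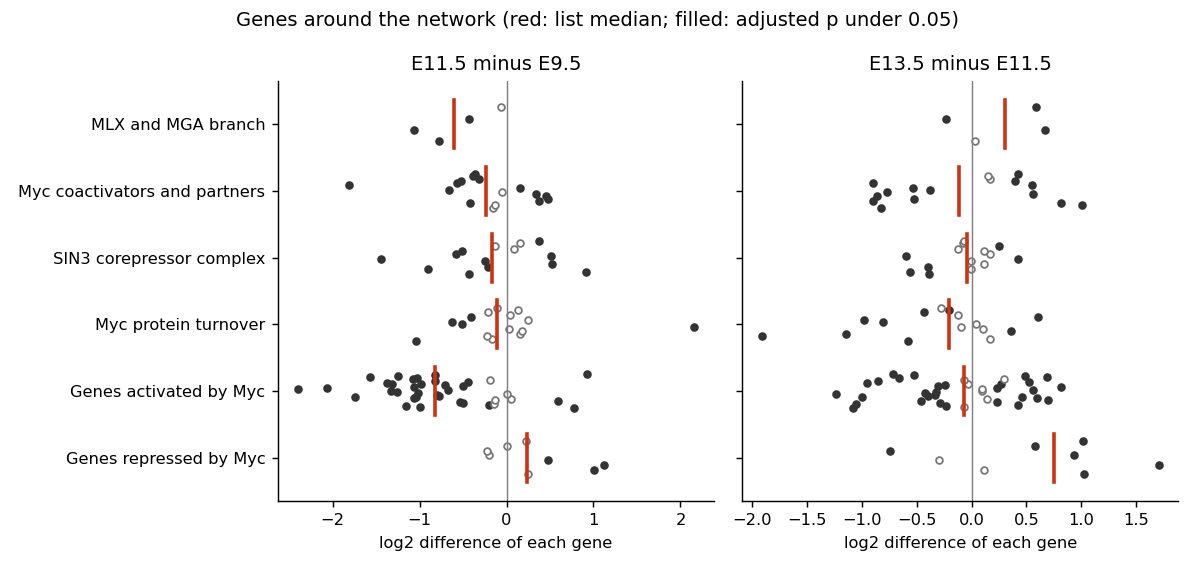
Log2 difference of each gene in 6 lists around the network (horizontal axis), E11.5 minus E9.5 on the left and E13.5 minus E11.5 on the right, on the brightest probe set; each point is 1 gene, filled where the adjusted p is under 0.05, and the red line is the list median. The median of the genes activated by Myc lies at -0.83 on the left and -0.07 on the right, and that of the genes repressed by Myc at 0.23 and 0.75.

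The genes most like each member were taken by Pearson's r over the 16 arrays, among 9232 genes with a mean log2 intensity of at least 6. The arrays fall into 3 stages, so r follows the stage levels, and it is given as a description. Closest to Mycn were Ddias (r = 0.996), Rpgrip1 (0.995) and the cyclin gene Ccnf, whose means were 8.64, 8.31 and 6.73 in stage order. Closest to Myc were the histone demethylase gene Kdm1a (0.980), the translation elongation gene Eef1d (0.978) and the fumarase gene Fh1 (0.976), each lowest at E11.5. Closest to Max were Tpm1 (0.955), Egfl7 (0.954) and Frg1 (0.954). For Mxi1 they were Sema6d (0.990), Ndfip1 (0.989) and the synaptic gene Snap91 (0.989), and for Mxd4 Arid5b (0.989), Snap47 (0.987) and Stx7 (0.986). Those of Mnt were Wsb2 (0.977), Tmem132a (0.973) and the neuronal adhesion gene Nfasc (0.971). Mxd1 had Stx16, Nudt3 and Ttbk2, with r between 0.954 and 0.957, and Mxd3 had Sh3bp1 (0.925), Rnf24 (0.924) and Tmem198b (0.920). For Mycl, whose brightest probe set was level, the highest r was 0.818 (Slc6a6), followed by Rab11fip4 (0.811) and Snn (0.785).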

How the data were processed

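Total RNA of 16 samples was measured on 1-colour short oligonucleotide arrays. The authors deposited an intensity per probe set, linear and rounded to whole numbers, which they computed with RMA, per the submitters' processing notes; no version or settings are given there. RMA equalises the arrays, whose medians were all 32, so values show changes relative to other transcripts. Rounding makes coarse steps at the dim end, and the number of arrays limits the precision.

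Intensities were turned to log2 here. Of 45101 probe sets, 64 controls were left out, 34945 named 1 gene, 932 named several and were not used, and 9160 were unnamed here. Symbols were looked up in RefSeq (GRCm38.p6), which changed 0. limma 3.58.1 in R 4.3.3 fitted the 3 stages together, and p-values were adjusted by Benjamini-Hochberg over 18193 genes, or over 45037 probe sets for those that are not the brightest. Errors are standard errors unless SD is named. The tests treat arrays of a stage as independent samples. The fit was tested on simulated data.

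Members and lists were chosen with earlier results of these data known. Of each list, up to 3 called genes with the largest rise and 3 with the largest fall at each step could be named, and a part of them is. Sin3b, Fbxw7, the first step of Sin3a and the second of Ruvbl1, Crebbp, Aurka and Plk1 were named once their values were known. Alternatives were between-array quantile scaling, centring on medians, averaging or switching probe sets, removal of the dimmest genes, fits of 2 stages, other variance models, array weights, a random block for the E13.5 title prefix, and leaving out arrays.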

Additional observations from a re-analysis of the deposited data

Results flagged for a closer look

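Among 66 groups, the 22 probe sets at 3 stages, 5 had 1 array far from the others by Dixon's criterion, where chance gives about 1 in 20. The largest gap was that of a dim Mxd1 probe set at E11.5, where sample 51 was at 6.04 and the next array at 5.0. On the brightest Mxd4 probe set, the same sample was at 8.04 and the next array at 7.88. On the brightest Mxd1 probe set at E13.5, sample B62E6K was low at 6.57, with the next at 6.83. A dim Mxd4 probe set was high in the E13.5 sample B63E5K (4.81, next 4.70), and the dim Mnt probe set was low in B63E7K (4.32, next 4.46).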

How the results depend on the processing

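Quantile normalization, median centring, the filter on dim genes, other variance models, array weights, the prefix block and testing every probe set changed no call of a member. RMA had already equalised the arrays, so quantile normalization and median centring could hardly change a call and are no test of the scaling. Of 729 repeated differences, 710 kept their side of the threshold, and 4 lost and 7 gained a call with the same sign. The other 8 changed sign and were called in the main fit, the repeat or both, all 8 under another treatment of probe sets. Only Mxi1 from E11.5 to E13.5 was called in opposite directions. All 4 lost calls also came with averaged or switched probe sets. So did the gained calls, except Mxd1 with only the stages compared and Mxd3 without the E11.5 sample 36. Most of the 729 repeats left out single arrays and kept the same probe set, so the total says little about the choice of probe set. With the mean of all probe sets, Mycl was at -0.46 (E11.5 minus E9.5) and -1.05 (E13.5 minus E9.5), 3 members were called lower from E11.5 to E13.5, Myc minus Mycl moved by 0.58 from E9.5 to E13.5, and Mycn minus Mycl by 0.17, -0.19 and -0.021 (E11.5 minus E9.5, E13.5 minus E11.5, E13.5 minus E9.5). With the second-brightest, Mycl was at -0.50 (E11.5 minus E9.5) and -1.80 (E13.5 minus E9.5), Mnt at -0.24 and -0.20 for the same pair, Mxd1 at -0.51 and Mxi1 at -0.33 (both E13.5 minus E11.5). Then 5 members were called lower from E11.5 to E13.5 and 3 higher from E9.5 to E13.5, Myc minus Mycl moved by 1.34 (E13.5 minus E9.5) and Mycn minus Mycl by 0.27, 0.44 and 0.70. Leaving out each array in turn gave 1 to 2 members called lower from E11.5 to E13.5, with 2 (Mycn and Mxd3) without the E11.5 sample 36. With only the stages compared, the Mxd1 difference from E11.5 to E13.5 was called (0.23, adjusted p = 0.0456). With the mean of all probe sets, 9 instead of 5 genes of Myc protein turnover were called at the first step. The cause of these changes was not tested.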

Other observations

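Genes that control the stability of Myc proteins were measured beside the network. Of 15 measured, 1 rose, 4 fell and 10 were not called from E9.5 to E11.5 (median log2 difference -0.11), and 2 rose, 7 fell and 6 were not called from E11.5 to E13.5 (median -0.21). Over all genes, 31.0% were called higher and 26.9% lower at the first step, and 27.9% and 27.0% at the second, so 4 falls of 15 at the first step lay near the background. The kinase gene Gsk3b, whose product marks Myc for breakdown, rose 4.46-fold at the first step (2.16 ± 0.08, adjusted p = 1.15e-13), and of its 5 other probe sets 3 rose and 1 fell. The mitotic kinase genes Aurka (-1.04 ± 0.07, adjusted p = 3.55e-10) and Plk1 (-0.63 ± 0.10, adjusted p = 1.73e-05), both known to stabilise Mycn protein, fell, and the other Aurka probe set was not called. Both genes fell again at the second step (-0.58 ± 0.07 and -0.80 ± 0.10), where the other Aurka probe set was again not called. At the second step, in which Mycn fell and Myc rose, Cip2a, which protects Myc from dephosphorylation, fell 3.75-fold (-1.91 ± 0.11, adjusted p = 9.05e-12). The other Cip2a probe set fell too. The ubiquitin ligase genes Fbxl14 (-1.14 ± 0.10) and Skp2 (-0.98 ± 0.13) also fell, and 4 of 5 other Skp2 probe sets with them. Fbxw7, the ligase that reads the mark set by Gsk3b, was not called (0.03 at the first step and 0.10 at the second).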
